A study of Mus musculus with 96 samples.

Results

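Genes that break down or coat the triglyceride stores of cells were followed in the ventricles of mice: the carboxylesterase gene Ces1d, the lipase genes Pnpla2, Lipe, Mgll and Lpl, the lipolysis cofactor genes Abhd5 and G0s2, and the perilipin genes Plin2, Plin4 and Plin5. They are 10 of the 55376 genes of the count table, and 10 of 10 passed the filter on low counts that left 15629 genes to test. Ces1d was selected on its lower counts after tamoxifen in these data, so its tamoxifen values are given as a description with no test. The other 9 genes were listed by role, with earlier results of these data known.

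Triglyceride is kept in lipid droplets, and its breakdown runs in steps. Adipose triglyceride lipase, encoded by Pnpla2, removes the first fatty acid, hormone-sensitive lipase (Lipe) acts mainly on the diglyceride that is left, and monoglyceride lipase (Mgll) on the last step. ABHD5 activates the first enzyme and G0S2 inhibits it, perilipins coat the droplet and control access to it, lipoprotein lipase (Lpl) frees fatty acids from lipoproteins in the capillaries, and CES1D is a hydrolase of the endoplasmic reticulum that can act on triglyceride. The heart burns fatty acids as a main fuel, and its clock, driven by BMAL1 and CLOCK at DNA sites called E-boxes, is known to time parts of lipid metabolism.

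All 4 groups have the genotype label iCSBmal1 KO, a Bmal1 deletion that can be switched on in heart muscle cells (Arntl is the gene symbol of Bmal1). The groups of 24 libraries each were females and males given vehicle and females and males given tamoxifen, the drug that induces the knockout. Vehicle mice carry the same alleles, so the drug and the loss of Bmal1 cannot be told apart. The sources used here do not give the promoter of the recombinase, the ages, or whether each library is a separate animal, so p-values measure the spread between libraries. Hearts were sampled at 12 times, every 4 h from ct 18 to ct 62 (read as circadian time in hours), with 2 libraries per group and time. The question behind the design is how far Bmal1 shapes sex differences in heart gene expression.

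Library totals ran from 8944955 to 20596194 counts. Values below are CPM, counts scaled to a common library total, after TMM, a method that evens out library composition, and log2 differences are fitted means with their standard error. Bulk tissue cannot separate fewer cells of a type from less RNA per cell. The summed level of 10 cardiomyocyte markers was 35940 to 63790 CPM over the 4 groups, while the 11 adipocyte markers summed to medians of 4.03 to 6.99 CPM.

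Arntl, the targeted gene, ran from 1.009 to 55.61 CPM in vehicle females, 1.304 to 44.53 in vehicle males, 2.784 to 29.27 in tamoxifen females and 1.304 to 32.39 in tamoxifen males. These ranges pool all times and overlap, and counts over the whole gene do not show the deletion. Matched by time, vehicle libraries of both sexes lay below tamoxifen ones at ct 34 (1.009 to 1.946 against 4.964 to 12.78 CPM). The same held at ct 62 (1.918 to 2.385 against 7.828 to 10.31 CPM). The order was the opposite at ct 26 (38.55 to 55.61 against 25.05 to 28.64 CPM). At ct 18 the groups overlapped (4.38 to 19.71 and 12.94 to 16.93 CPM). The pooled ranges thus do not check the treatment labels. Whether Arntl at matched times checks them was not tested. Some libraries went against their labels. Xist, the RNA of the inactive X, was at 0.248 CPM in Tam_F_ct54_559 and the Y-linked Ddx3y at 10.3 CPM. The other female libraries held 204.1 to 452.8 CPM of Xist, and the male ones 127 to 199.4 CPM of Ddx3y. Tam_F_ct54_559 thus matched neither sex, and its adipocyte markers summed to 314 CPM. The library labelled Tam_M_ct54_556 had clock genes against its time. Arntl lay under 6 CPM in 5 tamoxifen libraries, and 10 of the 24 vehicle male libraries held a higher share of counts in the annotation's TEC class (transcribed regions awaiting experimental support) than the 0.112% reached in any other group. The last are called TEC-rich below. For the 10 genes, calls that the TEC-rich libraries move are given with and without them. For other named genes the values without them are not given.

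Atrial tissue was present in some libraries. Myl7, the atrial myosin light chain, lay above 20 CPM in 13 of the 96, which are called Myl7-rich (7 vehicle female, 3 vehicle male, 1 tamoxifen female and 2 tamoxifen male libraries), and at most at 12.91 CPM in the rest. The 6 atrial markers summed to 75.12 to 2608 CPM in vehicle females, 105.7 to 2487 in vehicle males, 66.44 to 3985 in tamoxifen females and 69.36 to 2751 in tamoxifen males. Of the 5 tested, Myl7 (-3.75 log2, adjusted p = 0.00614) and Myl4 (-2.15 log2, adjusted p = 0.0333) were lower in the fit after tamoxifen in females. Their plain means in vehicle and tamoxifen females were closer, 37.29 and 28.33 CPM for Myl7 and 46.43 and 38.17 CPM for Myl4. The female groups differed in the number of Myl7-rich libraries, and the fitted sizes are not differences of those means. Nppa, Dkk3 and Stard10 did not pass in females (adjusted p = 0.638, 0.508 and 0.928), and none passed in males. Without the Myl7-rich libraries 4 calls of the 10 genes moved. Lpl passed in females (-0.16 log2, adjusted p = 0.0238), as did Pnpla2 between the vehicle sexes (0.21 log2, adjusted p = 0.0273), while Plin2 between the vehicle sexes (-0.08 log2, adjusted p = 0.243) and the rhythm change of Abhd5 in males (0.28 log2, adjusted p = 0.0823) did not.

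Promoter sequence was read from RefSeq (GRCm38.p6, 250 bases before to 50 bases after a transcript start) for 8 of the 10 genes, 11 promoters in all. These 8 are Pnpla2, Lipe, Mgll, Plin2, Plin4, Plin5, G0s2 and Abhd5. The E-box letters CACGTG, which read the same on both strands, were present in 1 promoter each of Lipe, Mgll and Plin2, and 7.15% of 32851 RefSeq promoters hold them. The windows below are shown because Lipe and Mgll changed with tamoxifen and over the day while Plin2 passed neither test, and capitals mark the E-box. They lie on the minus strand at chr7:25396122-25396157 (Lipe, E-box starting at -155 from the transcript start), on the plus strand at chr6:88724353-88724388 (Mgll, -44) and on the minus strand at chr4:86670043-86670078 (Plin2, -4).
Lipe: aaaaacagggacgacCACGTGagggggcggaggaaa
Mgll: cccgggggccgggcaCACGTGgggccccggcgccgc
Plin2: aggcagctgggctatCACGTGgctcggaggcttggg

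The half-site AGGTCA, bound by nuclear receptors such as the PPAR family, was searched on both strands and is held by 16.3% of those promoters. It stood once each in the promoters of Plin2 and Abhd5 and in both promoters of Plin5. Plin2 passed for tamoxifen in neither sex, and Pnpla2, which rose in males, held no match. The male rises of Plin5 and Pnpla2 did not pass without the TEC-rich vehicle males. The windows of Plin5 (its first promoter, minus strand, chr17:56117698-56117733) and Abhd5 (plus strand, chr9:122351532-122351567, where the letters read on the opposite strand) are shown because these 2 genes were higher after tamoxifen in males, with the half-site in capitals.
Plin5: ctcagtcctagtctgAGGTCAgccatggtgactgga
Abhd5: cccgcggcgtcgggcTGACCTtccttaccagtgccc
The D-box letters TTATGTAA or TTACGTAA, the site of PAR bZIP factors, were in 0 of the 11 promoters on either strand, against 1.06% of all promoters. A match describes letters and no binding was measured.

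Ces1d (ENSMUSG00000056973.6, chromosome 8, 93166068 to 93197838, minus strand, GENCODE M21 on GRCm38) had far lower counts after tamoxifen in both sexes. The lowest, median and highest of 24 libraries were 173.4, 260.4 and 366.2 CPM in vehicle females and 10.73, 32.28 and 197.6 CPM in tamoxifen females. In males they were 102.6, 216.4 and 274.8 CPM with vehicle and 20.72, 60.95 and 208 CPM with tamoxifen. Most tamoxifen libraries lay below every vehicle library of their sex, 23 of 24 in females and 20 of 24 in males, yet the ranges overlapped. The fitted difference was -2.49 ± 0.21 log2 in females, a level 0.178 times that of vehicle, and -1.54 ± 0.20 log2 in males, a level 0.343 times that of vehicle. The time means were lower at 12 of 12 times in each sex. Both tamoxifen libraries lay below both vehicle libraries at 12 of 12 times in females and 10 of 12 in males. The female difference minus the male one was -0.95 ± 0.29 log2, and this too is a description.

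**Figure D1:**
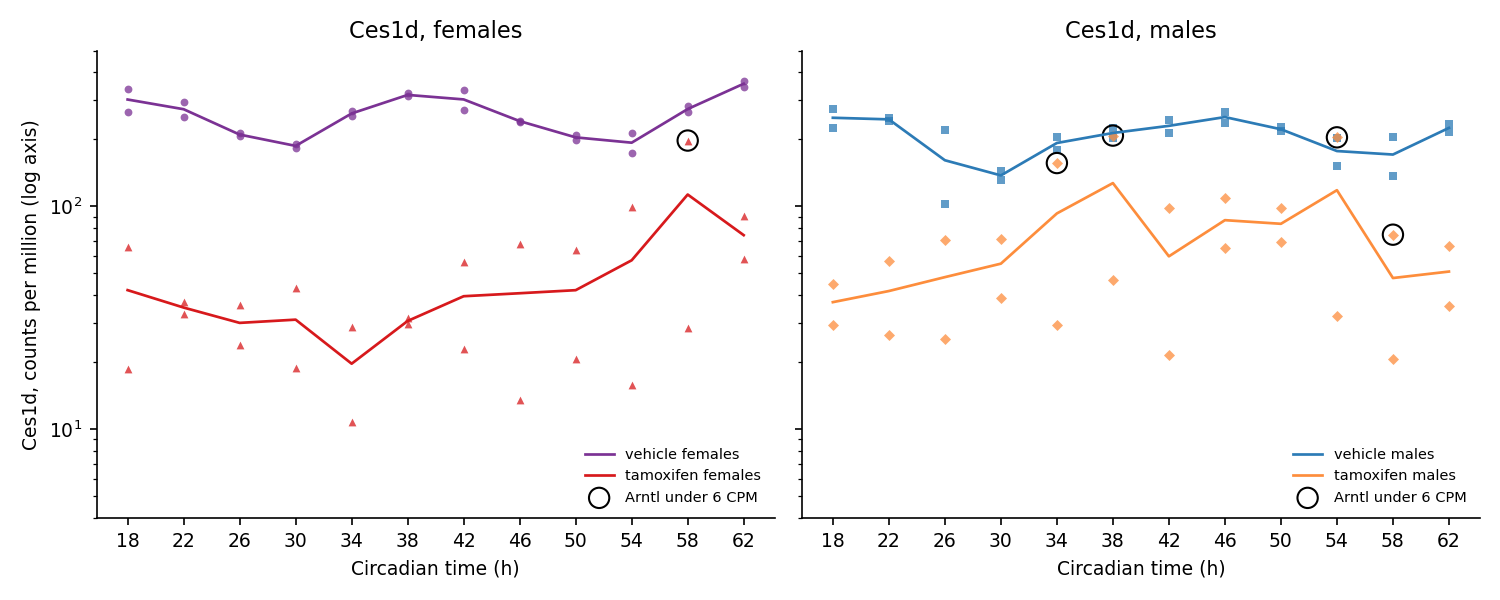
Ces1d in CPM (log axis) against circadian time in hours, females left and males right; points are libraries, lines are means of 2 libraries, and circles mark tamoxifen libraries under 6 CPM of Arntl. Vehicle means swing between 187 and 355.6 CPM in females, and the circled libraries hold the 4 highest tamoxifen values, 156.6 to 208 CPM.

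Tamoxifen hearts differed widely among themselves in Ces1d. The 4 highest values, 208 CPM (male, ct 38), 204.3 CPM (male, ct 54), 197.6 CPM (female, ct 58) and 156.6 CPM (male, ct 34), belonged to 4 of the 5 tamoxifen libraries under 6 CPM of Arntl, and the fifth held 74.69 CPM. The other 43 tamoxifen libraries ran from 10.73 to 108.7 CPM. Vehicle libraries of the same sex were also low in Arntl at ct 34 and 38 in males and ct 58 in both sexes (1.137 to 5.958 CPM). The other tamoxifen library of those times held 9.625 to 13.75 CPM. At ct 54 the vehicle males held 18.45 and 26.18 CPM of Arntl, and the other tamoxifen male 18.15 CPM. What sets the 5 libraries apart was not tested. Without the 5 libraries the fitted difference was -2.69 log2 in females and -2.05 log2 in males. The difference between the sexes then shrank from -0.95 to -0.65 log2.

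The numbers at the end of the library titles, whose meaning the labels do not give, ran in 2 blocks in tamoxifen mice, a lower and a higher one. Ces1d averaged 54.8 ± 43.6 CPM in the 17 female libraries of the lower block and 25.6 ± 19.5 CPM in the 7 of the higher block (SD). The male means were 95.5 ± 64.5 and 46.1 ± 19.4 CPM in 12 libraries each (SD). All 5 tamoxifen libraries under 6 CPM of Arntl belong to the lower block, 4 of them male. Without them the lower-block means were 45.9 ± 24.2 CPM in 16 female and 62.84 ± 35.05 CPM in 8 male libraries (SD), so the male gap between the blocks was smaller. Set against all vehicle libraries, the lower block gave -2.30 log2 in females and -1.07 log2 in males, and the higher block -3.40 and -2.10 log2. Ces1d was thus lower in each block than in the vehicle libraries, by different amounts, and the difference between blocks was not tested. Neither block holds a vehicle library.

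The time means of Ces1d also varied over the day in vehicle hearts. Vehicle female means were high at ct 18 (302 CPM), ct 38 (316.7 CPM) and ct 62 (355.6 CPM) and low at ct 30 (187 CPM) and ct 54 (193.3 CPM). The 2 vehicle female libraries of a time lay close at ct 46 (240.4 and 242.9 CPM) and far apart at ct 18 (266.3 and 337.6 CPM). Male means were high at ct 18 (250.1 CPM) and ct 46 (251.9 CPM) and low at ct 30 (137.8 CPM) and ct 58 (171 CPM). On the 4 h grid these high times were only roughly a day apart. In the model over all 96 libraries the amplitude was 0.39 ± 0.20 log2 in vehicle females (adjusted p = 0.265, edgeR quasi-likelihood test) and 0.32 ± 0.20 log2 in vehicle males (adjusted p = 0.374), and neither passed. That model shares a single spread per gene with the tamoxifen groups. Fitted to the 48 vehicle libraries alone, an alternative chosen after the data were seen, Ces1d passed in females (0.39 log2, adjusted p = 1.1e-05) and in males (0.32 log2, adjusted p = 0.000231). Without the 10 TEC-rich vehicle males as well, the female rhythm still passed (adjusted p = 2.69e-10) and the male one did not (0.17 log2, adjusted p = 0.0639). Amplitudes after tamoxifen were 0.40 ± 0.21 log2 in females and 0.28 ± 0.21 log2 in males, and their tests in the model over all libraries did not pass (adjusted p = 0.340 and 0.727).

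The sex difference of Ces1d in vehicle hearts shows the same dependence on the spread. Vehicle females lay above vehicle males at 10 of 12 times, by 0.32 ± 0.20 log2, and this did not pass in the model over all libraries (adjusted p = 0.151). In the vehicle libraries alone it did (0.32 log2, adjusted p = 1.15e-05), and also without the male TEC-rich libraries (0.19 log2, adjusted p = 0.000645). After tamoxifen the order was the opposite, with females 0.62 ± 0.21 log2 below males, again as a description. Per kilobase of exon the vehicle mean of Ces1d was 109.8 CPM in females and 87.21 CPM in males, near Pnpla2 at 115.5 and 104.4.

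Few other carboxylesterases had enough counts to test in these hearts. Of 19 other listed family members 3 passed the filter: Ces1e, Ces2e and Ces2g. Ces1e averaged 1.69 and 2.12 CPM in vehicle females and males and fell after tamoxifen in males (-0.46 ± 0.11 log2, adjusted p = 8.51e-05), while its female value was -0.17 ± 0.11 log2 (adjusted p = 0.238). Ces1d shares 1.08% of its 50-base exonic windows with Ces1b, Ces1f and Ces1g, which held at most 0.216 CPM in any group mean.

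The genes whose levels followed Ces1d most closely were Ano4, Tmem159, Gcat, Gm19522, Alox5, Kcnip2, Cngb3 and Ano10. Their Pearson r with Ces1d ran from 0.892 (Ano10) to 0.956 (Ano4) over the 48 group-by-time means, among 11046 genes of at least 5 CPM. Kcnip2, which encodes the KChIP2 subunit of cardiac potassium channels, averaged 263.3 and 217.2 CPM in vehicle females and males and 161.4 and 178.1 CPM with tamoxifen. The lowest r were those of Pfkp (-0.936), Smim14, Mapt, Gm49891, Cenpa, Pygl, Hfe and Apmap (-0.879). Pfkp, the platelet-type phosphofructokinase of glycolysis, averaged 65.64 and 65.18 CPM with vehicle and 123.8 and 106 CPM with tamoxifen. The means share the 4 group levels, so r follows the tamoxifen difference and is a description.

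Changes of the other 9 genes with tamoxifen were small and mixed. In females 0 of 9 rose, where 15.2% of tested genes did, and 3 fell, where 12.3% did. Among males 3 of 9 rose (32.2% of tested genes) and 3 fell (37.8%). Shares near the background say nothing particular about this list. The median of the 9 was -0.08 log2 in females, against 0.006 over all tested genes, and 0.064 log2 in males, against -0.046. At an unadjusted p under 0.05 the females had 0 of 9 genes higher, and DESeq2 called 0. When libraries were scaled by their totals in place of TMM, the split over all genes moved from 2381 higher and 1918 lower to 1794 and 2395 in females and from 5032 and 5905 to 3838 and 7558 in males. Of these 9 genes, Lpl then also fell in females (-0.15 log2, adjusted p = 0.00167), which made 4, and the other counts were the same.

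**Figure D2:**
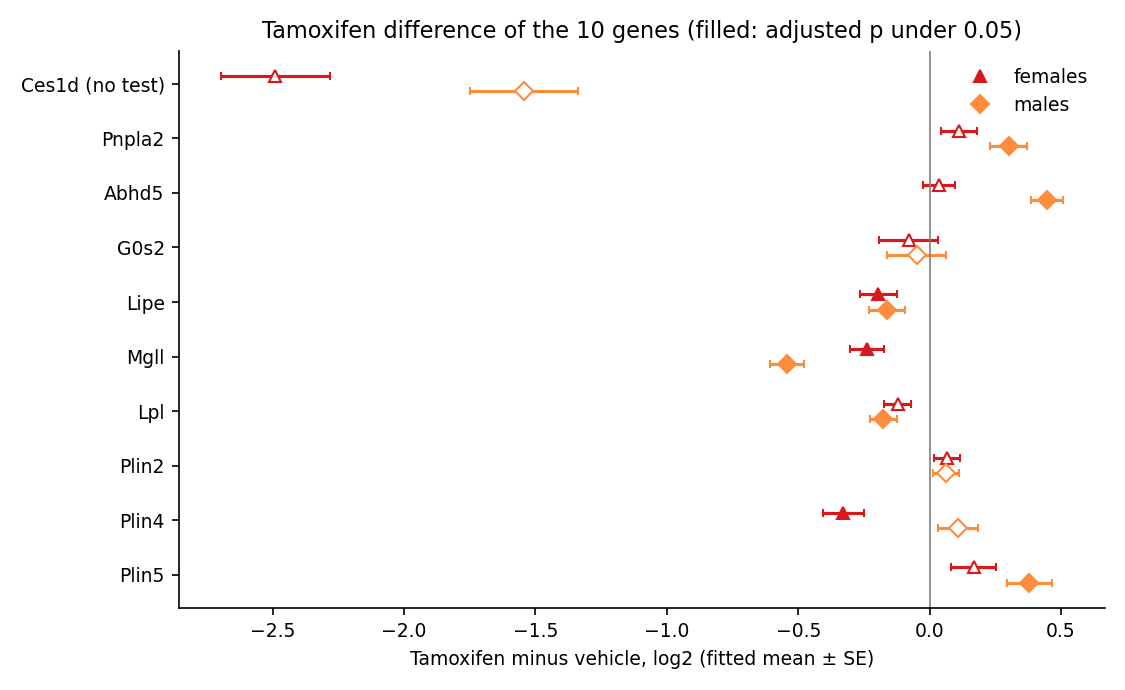
Fitted tamoxifen-minus-vehicle difference in log2 (points) with its standard error (bars) for the 10 genes, females and males; filled points passed an adjusted p of 0.05, and Ces1d was not tested. Ces1d lies at -2.49 and -1.54, and the other 9 genes lie between -0.54 and 0.45.

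Pnpla2, the gene of adipose triglyceride lipase (ENSMUSG00000025509.15, chromosome 7, 141455198 to 141460743), rose in males. Vehicle males held 144.3, 338.9 and 433.9 CPM (lowest, median, highest of 24) and tamoxifen males 332, 388.2 and 453.5 CPM. The difference was 0.30 ± 0.07 log2 (adjusted p = 0.000101, higher at 10 of 12 times), and it did not pass in the second day alone (0.17 log2, adjusted p = 0.113). The groups parted at the low end, since the upper ends of the ranges nearly met. Females went from a median of 346.4 to 382.6 CPM (0.11 ± 0.07 log2, adjusted p = 0.234), and the sex difference of the effect did not pass (-0.19 ± 0.10, adjusted p = 0.0995).

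Abhd5, the coactivator of that lipase (ENSMUSG00000032540.16, chromosome 9, 122351608 to 122381524), rose in males, while its female difference was close to 0. Vehicle males ran from 33.05 over a median of 64.57 to 93.01 CPM, and tamoxifen males from 76.58 over 86.8 to 98.91 CPM. The rise was 0.45 ± 0.06 log2 (adjusted p = 1.11e-09, higher at 12 of 12 times). Vehicle females held 63.84, 78.68 and 92.07 CPM and tamoxifen females 69.04, 82.84 and 90.93 CPM, a difference of 0.04 ± 0.06 log2 (adjusted p = 0.713). The effect in females minus that in males passed its test (-0.41 ± 0.09 log2, adjusted p = 6.33e-05). Abhd5 shares 950 exonic bases with the antisense gene A730085K08Rik, and the sources used here do not say whether counting used strand.

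G0s2, the inhibitor of the lipase (ENSMUSG00000009633.3, chromosome 1, 193272161 to 193273217), did not pass the test for its mean level in either sex. Its medians were 51.69 and 46.93 CPM in vehicle and tamoxifen females and 46.58 and 44.64 CPM in males. The differences were -0.08 ± 0.11 log2 (adjusted p = 0.647) and -0.05 ± 0.11 log2 (adjusted p = 0.704).

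Lipe, hormone-sensitive lipase (ENSMUSG00000003123.15, chromosome 7, 25379527 to 25398710), fell slightly in both sexes. Females went from 40.82, 53.72 and 97.53 CPM to 36.76, 48.41 and 70 CPM (-0.19 ± 0.07 log2, adjusted p = 0.0275, lower at 10 of 12 times). Males went from 41.24, 54.66 and 73.92 CPM to 35.83, 49.08 and 77.3 CPM (-0.16 ± 0.07 log2, adjusted p = 0.0328, lower at 11 of 12 times). The ranges overlap almost fully, and these calls are the least firm of the set. The female call was lost without ct 38, ct 42 or ct 50 (-0.14 to -0.18 log2), in either day alone, and with the lower title-number block of tamoxifen libraries (-0.12 log2). The male call was lost without ct 30, 38, 42, 46 or 58 (-0.14 to -0.16 log2), in the first day alone (-0.06), with the lower block (-0.06) and with the filter of 1 count per library on average (-0.12). Adipocytes express Lipe, Mgll, Plin4 and Pnpla2 strongly, and 3 of the 11 adipocyte markers passed the filter, none of the 11 being at 0 in every library. Their sum ran from 4.01 to 45.93 CPM in vehicle females, 3.05 to 35.14 in vehicle males, 1.86 to 313.7 in tamoxifen females and 2.49 to 36.23 in tamoxifen males. Without the libraries high in these markers the difference of Lipe was -0.22 log2 in females (adjusted p = 0.0225) and -0.17 log2 in males (adjusted p = 0.0364). Lipe shares 918 exonic bases with the antisense gene 4732471J01Rik.

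Mgll, monoglyceride lipase (ENSMUSG00000033174.17, chromosome 6, 88724412 to 88828360), had the largest tested fall of the 9. Vehicle males held 186.4, 286.2 and 473.8 CPM and tamoxifen males 146.6, 207.1 and 283.2 CPM, a difference of -0.54 ± 0.06 log2 (adjusted p = 1.23e-11, lower at 12 of 12 times). Vehicle females held 164, 186.3 and 311.3 CPM and tamoxifen females 137.7, 168 and 196.9 CPM, a difference of -0.24 ± 0.06 log2 (adjusted p = 0.00301, lower at 11 of 12 times). Vehicle males were thus the highest of the 4 groups, and the effect in females minus that in males was 0.30 ± 0.09 log2 (adjusted p = 0.00401). The female call was lost in the first day alone (-0.21 log2, adjusted p = 0.128) and with the lower title-number block (-0.18 log2, adjusted p = 0.0538). The difference of the effects was lost in the second day alone (0.25 log2, adjusted p = 0.114) and with the higher block (0.24 log2, adjusted p = 0.149).

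Lpl (ENSMUSG00000015568.16, chromosome 8, 68880491 to 68907448) was the most abundant of the 10, at 580.9 to 656.3 CPM per kilobase of exon against 8.50 to 9.68 for Lipe. Its libraries ran from 4697 over a median of 7120 to 9366 CPM in vehicle males and from 5232 over 6123 to 7170 CPM in tamoxifen males. It fell by 0.18 on the log2 scale (SE 0.05, adjusted p = 0.00153, lower at 10 of 12 times), and the call was lost in the first day alone (-0.14 log2, adjusted p = 0.0725) and with the lower title-number block (-0.10 log2, adjusted p = 0.184). Female libraries went from 5227, 6646 and 8918 CPM to 4608, 6119 and 7349 CPM, and the difference of -0.12 ± 0.05 log2 narrowly missed the threshold (adjusted p = 0.0625). It passed in 8 of the alternatives, among them DESeq2 (-0.13 log2, adjusted p = 0.0369) and the fit without the 5 tamoxifen libraries low in Arntl (-0.13 log2, adjusted p = 0.0403).

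Partners of lipoprotein lipase were read beside it. Of 6 tested partners 3 rose and 1 fell in males, and 0 passed in females with edgeR (0 at an unadjusted p under 0.05, and 0 with DESeq2). Of all tested genes 32.2% rose and 37.8% fell in males, so 4 of 6 called is near the background. Gpihbp1, which carries the lipase to the capillary wall, fell in males (-0.58 ± 0.08 log2, adjusted p = 2.95e-10) and had -0.08 ± 0.08 log2 in females (adjusted p = 0.462). Its own test of the effect in females minus that in males gave 0.49 ± 0.11 log2 (adjusted p = 9.91e-05). Gpihbp1 is made by endothelial cells, and the sum of 10 endothelial markers, 10 of which passed the filter with none at 0, ran from 1475 to 3115 CPM in vehicle males and from 1397 to 2014 CPM in tamoxifen males, against 1501 to 2367 and 1313 to 2105 CPM in females. Its part in the result was not tested. Sel1l, needed for the lipase to leave the endoplasmic reticulum, rose in males by 0.37 ± 0.04 log2 (adjusted p = 2.08e-12), as did Vldlr, a lipoprotein receptor (0.35 ± 0.06 log2, adjusted p = 1.99e-06). Their female values were -0.01 ± 0.04 and -0.12 ± 0.06 log2 (adjusted p = 0.85 and 0.168). Vehicle males held a mean of 105.5 CPM of Gpihbp1, against 57.34 to 68.89 CPM in the other groups. They held 85.92 CPM of Sel1l, against 109.5 to 111 CPM, and 466.7 CPM of Vldlr, against 553.5 to 601.2 CPM. These male calls were not checked without the TEC-rich libraries.

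The perilipins did not move as one. Plin4 (ENSMUSG00000002831.13, chromosome 17, 56100591 to 56109803) fell in females, from 237.4, 307 and 446.6 CPM to 175.1, 245.9 and 371.3 CPM (-0.33 ± 0.08 log2, adjusted p = 0.000495, lower at 12 of 12 times). In males its libraries went from 159.2, 255.5 and 351.2 CPM to 177.9, 287.4 and 433.6 CPM, a difference of 0.11 ± 0.08 log2 (adjusted p = 0.202). Of the 24 tamoxifen female libraries 11 lay below the lowest vehicle female library. The effect in females minus that in males was -0.44 ± 0.11 log2 (adjusted p = 0.000555).

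Plin5, the perilipin of oxidative tissues that ties droplets to mitochondria (ENSMUSG00000011305.11, chromosome 17, 56111601 to 56117596), rose in males. Vehicle males held 48.29, 117.2 and 175.5 CPM and tamoxifen males 114.8, 143.7 and 189 CPM (0.38 ± 0.08 log2, adjusted p = 5.55e-05, higher at 11 of 12 times). It did not pass in the second day alone (0.16 log2, adjusted p = 0.21). Again it was the low end of the vehicle males that tamoxifen males lacked. Females had medians of 114 and 135.8 CPM (0.17 ± 0.08 log2, adjusted p = 0.132), and the difference of the effects did not pass (-0.21 ± 0.12, adjusted p = 0.127). Plin2, the widely expressed droplet coat protein (ENSMUSG00000028494.12, chromosome 4, 86648386 to 86670060), had medians of 69.15 to 79.14 CPM over the 4 groups and differences of 0.07 ± 0.05 log2 in females (adjusted p = 0.336) and 0.06 ± 0.05 log2 in males (adjusted p = 0.241).

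Vehicle male libraries were not of one kind, and this touches most male results. The 10 TEC-rich vehicle male libraries had a median of 43.68 CPM of Abhd5, against 85.3 CPM in the other 14. Plin5 had medians of 74.48 and 146.8 CPM, and Pnpla2 of 237.6 and 357.6 CPM. Mgll had the opposite order, with 354 and 250.6 CPM. The 10 libraries thus held the low Abhd5 and most of the low Plin5 and Pnpla2 values of their group. They came from ct 26, 30, 34, 38, 42, 54, 58 and 62, with both libraries of ct 30 and of ct 34 among them, so time and library kind cannot be fully told apart. What makes these libraries differ was not tested.

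**Figure D3:**
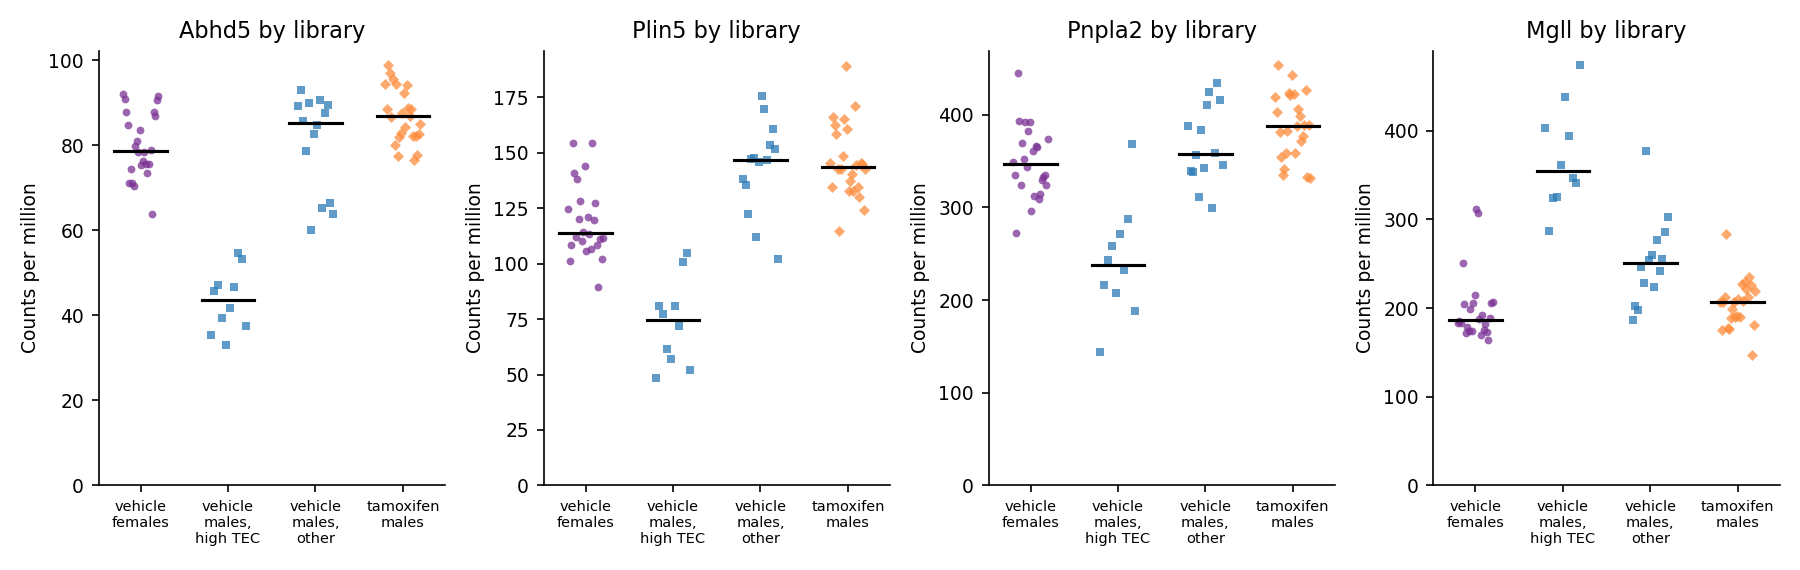
Abhd5, Plin5, Pnpla2 and Mgll in CPM for each library of vehicle females, TEC-rich vehicle males, other vehicle males and tamoxifen males; black lines are medians. The TEC-rich vehicle males lie low for Abhd5 (median 43.68) and high for Mgll (median 354).

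Without those 10 libraries the male tamoxifen rise of Abhd5 was 0.16 log2 and still passed (adjusted p = 0.000605), as did the falls of Mgll (-0.38 log2, adjusted p = 4.19e-06) and Lpl (-0.30 log2, adjusted p = 2.69e-06). The rises of Pnpla2 (0.05 log2, adjusted p = 0.532) and Plin5 (0.05 log2, adjusted p = 0.599) no longer passed, nor did the fall of Lipe (-0.18 log2, adjusted p = 0.102). The female comparison shares the model's spread, and in that fit Plin5 passed as higher (0.16 log2, adjusted p = 0.012) and Lpl as lower (-0.13 log2, adjusted p = 0.0128). Of the sex differences of the effect, Plin4 (-0.36 log2, adjusted p = 0.0198), Abhd5 (-0.13 log2, adjusted p = 0.0393) and Lpl (0.17 log2, adjusted p = 0.0445) passed and Mgll did not (0.14 log2, adjusted p = 0.243). Among all genes, 42.2% of tested genes were then called for tamoxifen in males, against 70% with the 10 libraries.

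Differences of the tamoxifen effect between the sexes were called for 3 of the 9 genes (Mgll, Plin4 and Abhd5), where 52.3% of tested genes were called. The sexes themselves differed in vehicle hearts for 4 of 10 genes. Title numbers also ran separately in the vehicle sexes, so sex and what the numbers stand for cannot be told apart there. Plin4 (0.33 ± 0.08 log2, adjusted p = 0.00012) and Abhd5 (0.32 ± 0.06 log2, adjusted p = 3.07e-06) were higher in females, where 31.8% of tested genes were. Mgll (-0.59 ± 0.06 log2, adjusted p = 1.22e-12, lower at 12 of 12 times) and Plin2 (-0.11 ± 0.05 log2, adjusted p = 0.0399) were lower, where 36.5% were. For Mgll 12 of the 24 vehicle female libraries lay below the lowest vehicle male library. Without the TEC-rich vehicle males Mgll (-0.42 log2, adjusted p = 6.76e-07), Plin2 (-0.24 log2, adjusted p = 5.14e-05) and Plin4 (0.26 log2, adjusted p = 0.0224) kept their calls and Lpl gained one (-0.15 log2, adjusted p = 0.015), while Abhd5 had 0.05 log2 (adjusted p = 0.289). Plin5, at 0.09 ± 0.08 log2 over all libraries (adjusted p = 0.371), was then lower in females (-0.24 log2, adjusted p = 0.00189). The Plin2 call was lost in 17 of the alternatives, among them DESeq2 (-0.10 log2, adjusted p = 0.0707), the filter of 1 count per library on average (-0.07 log2), the first day alone (-0.03 log2) and leaving out ct 18, 34, 38, 46, 50, 54 or 58 (-0.06 to -0.11 log2). That of Plin4 was lost in the second day alone (0.21 log2, adjusted p = 0.106). Pnpla2, at 0.15 ± 0.07 log2 (adjusted p = 0.0524), passed in 13 of the alternatives, among them DESeq2 (0.16 log2, adjusted p = 0.037).

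After tamoxifen 1 of the 9 tested genes differed between the sexes, where 7.68% of tested genes did. This was Mgll, lower in females by 0.28 on the log2 scale (SE 0.06, adjusted p = 0.00146, lower at 12 of 12 times). The call was lost in the first day alone (-0.25 log2, adjusted p = 0.132) and with the tamoxifen libraries of the higher title-number block (-0.34 log2, adjusted p = 0.14).

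Daily rhythms of these genes were modest in size. With a 24 h cosine, 3 of 10 genes passed in vehicle females (34.5% of tested genes), 5 of 10 in vehicle males (55.2%), 2 of 10 in tamoxifen females (17.1%) and 0 of 10 in tamoxifen males (8.03%). At an unadjusted p under 0.05 the tamoxifen males had 2 of 10, and DESeq2 called 0. Plin4 passed in tamoxifen males once the library labelled Tam_M_ct54_556 was left out (0.33 log2, adjusted p = 0.003), and then also in vehicle females (0.21 log2, adjusted p = 0.0335) and tamoxifen females (0.22 log2, adjusted p = 0.0433). The same 3 calls of Plin4 were made without the 5 tamoxifen libraries low in Arntl.

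**Figure D4:**
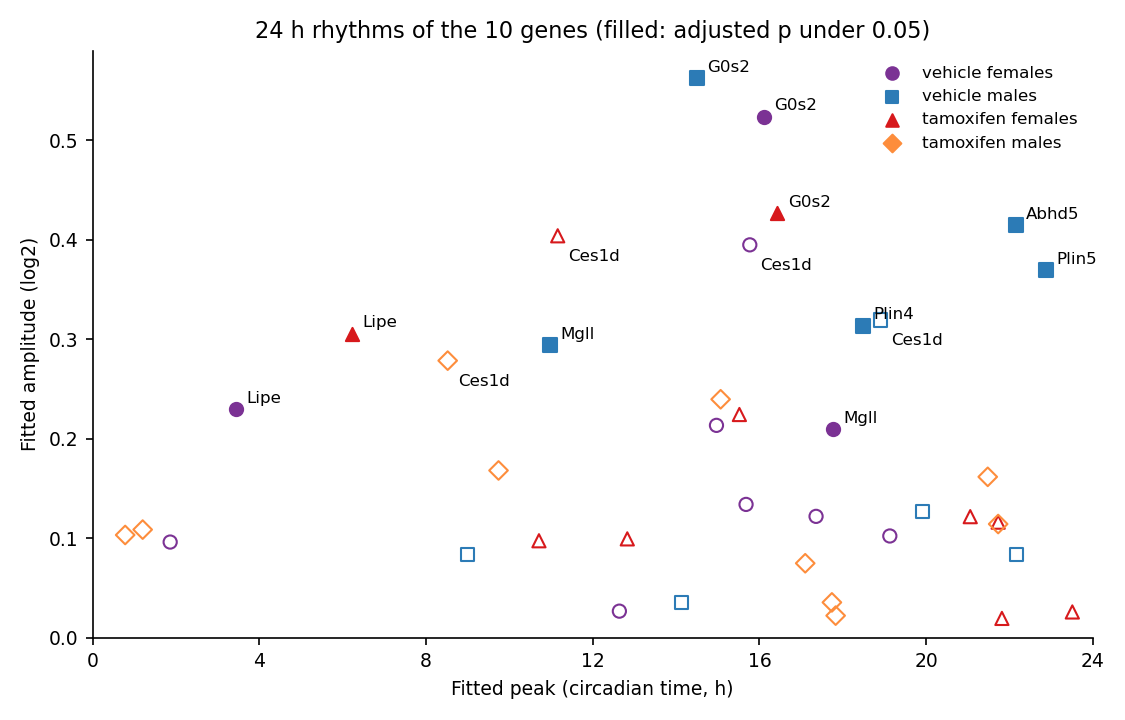
Fitted amplitude in log2 against fitted peak in circadian hours for each of the 10 genes in each group; filled points passed an adjusted p of 0.05 in the model over all libraries, and Ces1d is named without a call. G0s2 has the largest called amplitudes, 0.43 to 0.56 log2, with peaks between ct 14.5 and ct 16.4.

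G0s2 had the strongest rhythm of the set. It peaked at ct 16.1 ± 0.8 in vehicle females (amplitude 0.52 ± 0.11 log2, a 2.07-fold range, adjusted p = 0.000727) and at ct 14.5 ± 0.8 in vehicle males (0.56 ± 0.11 log2, adjusted p = 4.22e-05). The vehicle male mean was high at ct 38 (122.6 CPM) and ct 62 (91.63 CPM) and low at ct 26 (39.73 CPM) and ct 54 (38.66 CPM). In tamoxifen females the rhythm passed at nearly the same phase (ct 16.4 ± 1.0, 0.43 ± 0.11 log2, adjusted p = 0.0113), and its change with tamoxifen was 0.11 ± 0.16 log2 (adjusted p = 0.921). Tamoxifen males had an amplitude of 0.16 ± 0.11 log2 (adjusted p = 0.717), and the change in males passed (0.62 ± 0.16 log2, adjusted p = 0.0072). Without the TEC-rich vehicle males that change was 0.67 log2 with an adjusted p of 0.0565, and it passed in neither day alone (0.59 and 0.67 log2). The rhythm itself was lost in the first day alone in vehicle females (0.46 log2), in the second in vehicle males (0.42 log2), and in tamoxifen females in either day and without ct 42 (0.38 log2). A change or difference of rhythm is the distance between 2 fitted cosine and sine pairs, which covers size and phase at once and has no sign.

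Mgll peaked at different times in the vehicle sexes, ct 17.8 ± 1.2 in females (0.21 ± 0.06 log2, adjusted p = 0.0232) and ct 10.97 ± 0.84 in males (0.29 ± 0.06 log2, adjusted p = 0.000435). The female rhythm rested on ct 42, where the mean was 309.1 CPM and the other times ran from 176.4 to 216.9 CPM, and without ct 42 it was 0.09 log2 (adjusted p = 0.581). It was also lost in the first day alone, when scaled by totals (0.19 log2, adjusted p = 0.0749) and without adipocyte-rich libraries (0.20 log2, adjusted p = 0.0768). The male mean was low at ct 18 (194.5 CPM) and ct 46 (241.6 CPM) and high at ct 38 (407.7 CPM) and ct 62 (388.2 CPM). Without the TEC-rich vehicle males the male rhythm still passed, but not in the fit to the vehicle libraries alone without them. The vehicle sexes differed in this rhythm (0.40 ± 0.09 log2, adjusted p = 0.00226). The call held without the male TEC-rich libraries (0.38 log2, adjusted p = 0.0179) and was lost in the second day alone (0.34 log2, adjusted p = 0.11). In males the rhythm changed with tamoxifen (0.39 ± 0.09 log2, adjusted p = 0.00563), a call lost without the TEC-rich libraries (0.32 log2, adjusted p = 0.073) and in the second day alone (0.41 log2, adjusted p = 0.12). The tamoxifen male means stayed between 182.9 and 230.4 CPM.

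Abhd5 was rhythmic in vehicle males, with a peak at ct 22.2 ± 0.6 (0.41 ± 0.06 log2, adjusted p = 6.19e-07). Its male mean was high at ct 18 (91.09 CPM) and ct 46 (87.66 CPM) and low at ct 34 (36.18 CPM) and ct 62 (50.64 CPM). In the other 3 groups the time means stayed between 70.69 and 97.98 CPM, and their amplitudes of 0.11 to 0.13 log2 (adjusted p = 0.185 to 0.481) did not pass in the model over all libraries. The rhythm of vehicle males differed from that of vehicle females (0.45 ± 0.09 log2, adjusted p = 0.000245) and from that of tamoxifen males (0.30 ± 0.09 log2, adjusted p = 0.025). Without the 10 TEC-rich libraries the male amplitude was 0.20 log2 and passed (adjusted p = 0.00634), the difference between the sexes was 0.27 log2 and passed (adjusted p = 0.00243), and the change with tamoxifen was 0.10 log2 and did not pass (adjusted p = 0.413). In that fit the other 3 groups passed too, with 0.13 log2 in vehicle females (adjusted p = 0.00267), 0.11 in tamoxifen females (adjusted p = 0.0215) and 0.10 in tamoxifen males (adjusted p = 0.0398). The change with tamoxifen over all libraries was also lost in the second day alone (0.29 log2, adjusted p = 0.208) and without ct 18, 22, 34, 46 or 50 (0.25 to 0.33 log2). In the vehicle libraries alone without the TEC-rich ones the male rhythm had 0.19 log2 (adjusted p = 0.0612).

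**Figure D5:**
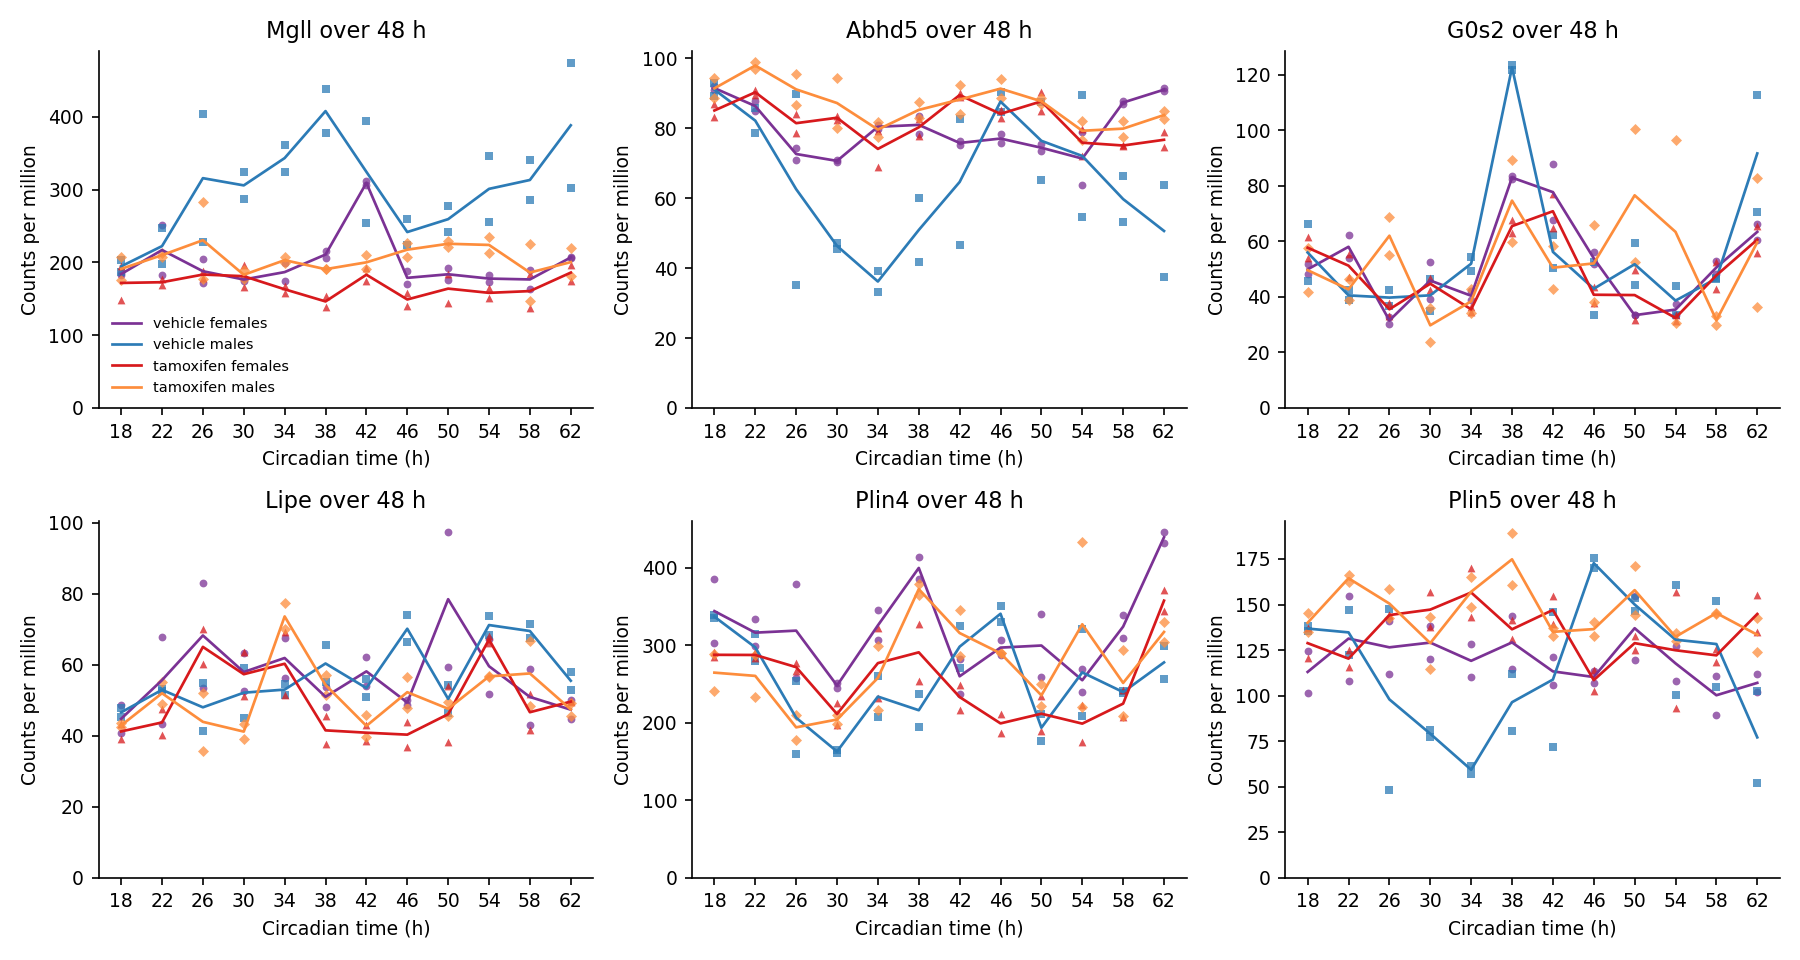
Mgll, Abhd5, G0s2, Lipe, Plin4 and Plin5 in CPM against circadian time in hours for the 4 groups; points are libraries and lines are means of 2 libraries. For Abhd5 the vehicle male mean is 91.09 at ct 18 and 36.18 at ct 34, and G0s2 is high near ct 38 and ct 62.

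Lipe was rhythmic in females with either treatment. It peaked at ct 3.5 ± 1.2 in vehicle females (0.23 ± 0.07 log2, adjusted p = 0.0196) and at ct 6.2 ± 0.9 in tamoxifen females (0.31 ± 0.07 log2, adjusted p = 0.00283), and the change was 0.20 ± 0.10 log2 (adjusted p = 0.47). The female peaks of Lipe and G0s2 thus lay on opposite sides of the day. The vehicle female call was lost without ct 18, 50 or 62 (0.17 to 0.22 log2), and both female calls were lost in either day alone (0.23 to 0.35 log2). Plin4 (ct 18.5 ± 0.9, 0.31 ± 0.08 log2, adjusted p = 0.00136) and Plin5 (ct 22.9 ± 0.9, 0.37 ± 0.08 log2, adjusted p = 0.000645) passed in vehicle males and did not without the TEC-rich libraries (0.24 and 0.19 log2, adjusted p = 0.193 and 0.114). Pnpla2, Lpl and Plin2 passed in no group, with amplitudes of 0.03 to 0.13 log2.

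The rhythm changed with tamoxifen in 0 of 10 genes in females, where 0.237% of tested genes changed, and in 3 of 10 in males (20.7%). Plin5 just missed in males (0.36 log2, adjusted p = 0.0515) and passed with DESeq2 (0.38 log2, adjusted p = 0.0344). In females 0 of 10 passed at an unadjusted p under 0.05, and DESeq2 called 0. Without the TEC-rich vehicle males the male count was 0 of 10, where 2.56% of genes were called. Between vehicle females and vehicle males 2 of 10 genes differed in rhythm (37.4%), Mgll and Abhd5, both also called without those libraries. In the fit to the vehicle libraries alone without them, Mgll had an adjusted p of 0.056 (0.39 log2). In the fit to the vehicle libraries alone Ces1d joined them (0.28 log2, adjusted p = 0.0276).

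Wider lists of the same pathways hold some larger changes than these 9 genes. Of 11 tested triglyceride synthesis genes 4 rose and 3 fell in females, and 5 rose and 1 fell in males. For these and the next lists, the shares over all tested genes were 15.2% higher and 12.3% lower in females and 32.2% and 37.8% in males. Male calls of these lists were not checked without the TEC-rich vehicle males. Dgat2, which adds the last fatty acid to triglyceride, fell in both sexes, from a mean of 338.8 to 153.3 CPM in females (-1.12 ± 0.12 log2, adjusted p = 7.38e-13) and from 276.4 to 198.6 CPM in males (-0.45 ± 0.12 log2, adjusted p = 0.000609). Agpat3, an acyltransferase earlier in the pathway, rose from 231.1 to 343.1 CPM and from 198.1 to 335.5 CPM (0.59 ± 0.06 and 0.77 ± 0.06 log2, adjusted p = 8.67e-15 and 1.46e-20). Lpin1, a phosphatidate phosphatase, rose in males (0.57 ± 0.06 log2, adjusted p = 2.22e-13) and in females (0.22 ± 0.06 log2, adjusted p = 0.00344). Gpat3 fell in females (-0.42 ± 0.07 log2, adjusted p = 5.46e-07) and had -0.13 ± 0.07 log2 in males (adjusted p = 0.0795). The list's median was 0.042 log2 in females and 0.097 in males.

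Among 17 other tested droplet and lipolysis genes 3 rose and 2 fell in females, and 8 rose and 5 fell in males, with medians of 0.033 and 0.024 log2. The male count of 13 of 17 stands beside 70% of all tested genes called. Pnpla3, a relative of Pnpla2 at low level here, rose from 1.08 to 3.89 CPM in females (1.90 ± 0.17 log2, adjusted p = 3.89e-17) and from 1.09 to 2.81 CPM in males (1.47 ± 0.17 log2, adjusted p = 3.66e-12). Cidea, a droplet fusion protein, rose in females (0.61 ± 0.06 log2, adjusted p = 5.73e-16) and in males (0.17 ± 0.06 log2, adjusted p = 0.00404). Fitm2, which helps droplets bud, rose in males (0.60 ± 0.08 log2, adjusted p = 3.54e-10) and had 0.12 ± 0.08 log2 in females (adjusted p = 0.269). Pnpla8, a phospholipase, rose in males (0.53 ± 0.07 log2, adjusted p = 2.61e-09) and had 0.01 ± 0.07 log2 in females (adjusted p = 0.921). Vehicle males had the lowest mean of Fitm2, 214.6 CPM against 284.3 to 319.5 CPM in the other groups. The same held for Pnpla8, with 168.4 CPM against 231.1 to 237.4 CPM. Abhd6, a monoglyceride lipase, fell in females (-0.26 ± 0.05 log2, adjusted p = 3.6e-05) and in males (-0.16 ± 0.05 log2, adjusted p = 0.00441). The adipocyte droplet genes Plin1 and Cidec stayed below the filter, with group means of 0.259 to 1.54 and 0.271 to 1.19 CPM.

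Genes known as targets of PPAR receptors were counted in the same way. Of 14 tested, 2 rose and 1 fell in females, and 4 rose and 1 fell in males, with medians of 0.096 and 0.099 log2. That is 3 of 14 called in females, where 27.5% of all tested genes were, and 5 of 14 in males, where 70% were. Pdk4, which slows glucose oxidation, rose in males from 514.6 to 734.2 CPM (0.57 ± 0.22 log2, adjusted p = 0.0199) and had 0.46 ± 0.22 log2 in females (adjusted p = 0.117). Acadm, an enzyme of fatty acid oxidation, rose in females (0.22 ± 0.07 log2, adjusted p = 0.0163) and in males (0.49 ± 0.07 log2, adjusted p = 1.27e-08), as did Acot2, an acyl-CoA thioesterase (0.25 ± 0.08 and 0.32 ± 0.08 log2, adjusted p = 0.0116 and 0.000225). Cpt1a, which lets fatty acids into mitochondria, fell in females (-0.33 ± 0.07 log2, adjusted p = 0.000236) and had -0.007 ± 0.07 log2 in males (adjusted p = 0.941). Its muscle form Cpt1b fell in males (-0.44 ± 0.09 log2, adjusted p = 5.14e-06) and had 0.10 ± 0.09 log2 in females (adjusted p = 0.414). Cpt1b averaged 12.09 and 17.91 CPM in vehicle females and males and 13 and 13.03 CPM with tamoxifen. Cpt1a had group means of 57.43 to 73.11 CPM. Whether exons of Cpt1a or Cpt1b overlap those of other genes was not checked, so these levels do not rank the forms. The male call of Cpt1b was not checked without the TEC-rich vehicle males.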

How the data were processed

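Gene-level counts of ventricle RNA were analysed in 96 libraries. Counts were deposited as whole numbers by the authors, not normalized, and per the submitters' processing notes HISAT2, Picard and HTSeq were used with GRCm38 or mm10 (versions not given in the sources used here). Per the labels' protocols the libraries were poly-A selected, so RNAs without a tail are mostly missed, and isoforms are summed. Groups and times were taken from the library titles and treatment labels, and 0 columns were left unmapped. The 2 libraries of a group and time differed by more than sampling noise in 48 of 48 pairs (chi-square per gene 3.86 to 99.6). Totals of 8944955 counts or more make 1 count worth about 0.1 CPM, counting error only.

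Tests used R 4.3.3 with edgeR 4.0.16. The filter (filterByExpr by group, minimum count 10) left 15629 of 55376 genes, with TMM scaling. The quasi-likelihood fit gave each group its mean and a 24 h cosine and sine (12 coefficients, 84 residual degrees of freedom). Benjamini-Hochberg adjustment ran over all tested genes, with a threshold of 0.05. Values after ± are standard errors for fitted values and standard deviations for CPM. The fit was tested on simulated data. Alternatives were DESeq2 1.42.0, other scaling and filters, 1 mean per group and time, and subsets of libraries or times. Chosen after seeing the data were a filter of 1 count per library on average, leaving out 5 tamoxifen libraries under 6 CPM of Arntl, and the fits to the vehicle libraries alone.

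The genes and lists were chosen with earlier results of these data known. One gene of the list of lipoprotein lipase partners is not reported here and is not in its counts. Named beyond the 10 genes are, by rule, the 8 genes with the highest and the 8 with the lowest r to Ces1d, and the called genes of each list with the 3 largest changes per tamoxifen comparison. Of marker lists (cardiomyocyte, adipocyte, atrial, endothelial, macrophage, hepatocyte, lung epithelium) the summed levels were computed per library. The medians over the 4 groups were 156.4 to 250.4 CPM for atrial, 1639 to 2011 CPM for endothelial, 350 to 434.7 CPM for macrophage, 2.27 to 4.99 CPM for hepatocyte and 0.834 to 1.19 CPM for lung epithelium markers. Gene positions are from GENCODE M21 on GRCm38.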

Additional observations from a re-analysis of the deposited data

Results flagged for a closer look

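The tamoxifen effect differed between females and males by its own test for Mgll (female effect minus male effect 0.30 ± 0.09 log2), Plin4 (-0.44 ± 0.11 log2) and Abhd5 (-0.41 ± 0.09 log2). Mgll fell in both sexes and by more in males, Plin4 fell in females, and Abhd5 rose in males. The 24 h rhythm differed between vehicle females and vehicle males for Mgll (vector of 0.40 ± 0.09 log2) and Abhd5 (0.45 ± 0.09 log2). The Mgll effect difference was 0.14 log2 and did not pass without the TEC-rich vehicle males, and that of Abhd5 was -0.13 log2 and did. What sets those libraries apart was not tested.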

How the results depend on the processing

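The tamoxifen differences of Ces1d kept their direction under every alternative run, from -2.16 to -3.40 log2 in females and from -1.07 to -2.10 log2 in males. The planned fit without a filter was not run, since the model could not be fitted to genes with nearly all counts at 0. No paired analysis was possible because the groups share no replicate numbers.

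Counts of genes called were within 1.5 times those reported under DESeq2, DESeq2 size factors, library size alone, the filter of 1 count per library on average, 1 mean per group and time, and without Tam_F_ct54_559, Myl7-rich or adipocyte-rich libraries. Without Tam_M_ct54_556, and without the 5 tamoxifen libraries low in Arntl, 1 gene was rhythmic in tamoxifen males. Without the TEC-rich vehicle males, 1 gene was higher after tamoxifen in females, 1 in males, 3 were rhythmic in vehicle males, 1 in tamoxifen males, and 0 changed rhythm in males. Plin5 in vehicle females minus males turned to -0.24 log2 there, and also in the fit to the vehicle libraries alone without them (-0.24 log2), where 6 genes were rhythmic in females and 1 in males.

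In the first 24 h alone 1 gene was lower after tamoxifen in each sex, 5 differed in effect between the sexes, 0 differed between the sexes after tamoxifen, 0 were rhythmic in vehicle or tamoxifen females, 1 was rhythmic in tamoxifen males, and 4 differed in rhythm between the vehicle sexes. In the second 24 h alone 1 was higher in males, 0 were rhythmic in tamoxifen females and 0 changed rhythm in males. With the lower title-number block of tamoxifen libraries, 1 was lower in females and 1 in males, and with the higher block 0 differed between the sexes after tamoxifen. These subsets hold fewer libraries. Leaving out 1 time gave 0 to 1 rhythmic genes in tamoxifen males, 2 to 5 differences of rhythm between the vehicle sexes and 3 to 5 differences of effect.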
